A study of Mus musculus with 10 samples.

Results

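The kinesin family was followed across germinal center B cells of mice labelled Pbrm1-/- and Pbrm1+/+. Members were taken by symbol, as every row of the count table whose identifier maps to a mouse gene named Kif, a number and at most 1 of the letters a to c, which gave 38 genes of 55421. By their known roles the 38 were divided into 11 mitotic kinesins, 13 transport kinesins and 14 other kinesins. The 4 genes that mark the family here are Kif11 (ENSMUSG00000012443.4, chromosome 19, 37376403 to 37421859), Kif20a (ENSMUSG00000003779.16, chromosome 18, 34624613 to 34633277), Kif23 (ENSMUSG00000032254.10, chromosome 9, 61915905 to 61946774) and Kif5b (ENSMUSG00000006740.14, chromosome 18, 6201002 to 6242174). All coordinates are on mm10, which is the same assembly as GRCm38.

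The study sequenced total RNA, after removal of ribosomal RNA, from splenic B cells enriched with PNA beads 10 days after C57BL/6 mice aged 8 to 10 weeks had been immunized. The 10 libraries were 2 HOMO CC, 2 HOMO CB, 3 WT CC and 3 WT CB. HOMO mice carried the genotype Pbrm1-/- and WT mice Pbrm1+/+, and CC and CB are fractions that the labels do not spell out. Pbrm1 encodes a subunit of the PBAF chromatin remodelling complex. The labels name neither the cells in which the gene was altered nor the immunogen, and the AID in the column names of the count table is not explained. Separate animals are not stated for the libraries of a group, and the p-values below measure the spread between libraries, of which an unknown part may be technical.

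Kinesins are motor proteins that use ATP to move along microtubules or to take them apart. Mitotic kinesins build the spindle, move and align chromosomes, and assemble the midzone at which the cell divides, and their messages are made mostly in G2 and M phase. Transport kinesins carry vesicles, endosomes, lysosomes and mitochondria in cells whether they divide or not. In a germinal center, B cells of the dark zone (centroblasts) divide and mutate their antibody genes, while those of the light zone (centrocytes) test antigen and receive T cell help.

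The fraction labels were set beside lists of markers, which were chosen with earlier results of these data known and so are no independent check. By edgeR's quasi-likelihood test, all 5 listed CB markers, among them Cxcr4 and Foxo1, were lower in CC in either genotype. All 6 listed CC markers, among them Cd83 and Cd86, were higher. Of all genes tested, 2.98% fell and 2.46% rose in HOMO, and 12.3% fell and 11.6% rose in WT. Library totals ran from 9954006 counts (HOMO CC 3) to 67625110 (HOMO CB 3). Pbrm1, the targeted gene, was at 152 and 150 CPM in HOMO CC, 178 and 164 CPM in HOMO CB, 239, 239 and 250 CPM in WT CC, and 319, 309 and 312 CPM in WT CB, where CPM is the count scaled to library depth, here with TMM normalization. All HOMO libraries lay below all WT libraries, but Pbrm1 RNA was present in all of them. The labels do not say which part of the gene was altered, so a count over the whole gene does not check its loss. The WT libraries numbered 3 stood apart from the other WT libraries of their fraction. Xist was at 708, 84.5 and 2386 CPM in WT CC 1, 2 and 3, and at 467, 72.5 and 2668 CPM in WT CB. In the HOMO libraries it was between 2022 and 2884 CPM. Ddx3y was at 85.9, 97.3 and 39.2 CPM in WT CC 1, 2 and 3, and at 79.6, 104 and 40.1 CPM in WT CB. In the HOMO libraries it was between 35.2 and 51.1 CPM. Each gene ran in the same order over the WT numbers in either fraction. Libraries also differed in how a gene's deviation from its mean followed its GC content. The Spearman correlation over 8802 genes was -0.18 and -0.23 in HOMO CC, -0.65 and -0.62 in HOMO CB, 0.44, 0.57 and 0.15 in WT CC, and 0.16, 0.26 and -0.47 in WT CB.

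Of the 38 kinesins, 30 had enough counts to be tested: all 11 mitotic, 11 of the 13 transport and 8 of the 14 other kinesins. The untested transport kinesins were Kif1a and Kif17, which carry cargo along neurites. The untested other kinesins were Kif2b, Kif6, Kif12, Kif21a, Kif26a and Kif27, and of these Kif2b and Kif12 had no count in any of the 10 libraries. A count of 0 allows up to 0.285 CPM in the shallowest library and 0.0439 CPM in the deepest, taking 3 counts as the limit for counting error alone. Kif28, Kif5a, Kif5c, Kif7 and Kif26b were tested but averaged under 2 CPM in every group.

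Per kilobase of gene, the most abundant kinesin in all 4 groups was Kif11, the motor that slides antiparallel microtubules to push the spindle poles apart. It averaged 40.4 ± 2.64 CPM per kb in HOMO CC and 61.8 ± 1.55 in HOMO CB (SD, n = 2 each), and 34.9 ± 2.08 in WT CC and 58.6 ± 5.58 in WT CB (SD, n = 3 each). In CC of both genotypes the next was a transport motor, Kif5b, the ubiquitous heavy chain of conventional kinesin, at 26.2 ± 1.44 CPM per kb in HOMO CC (n = 2) and 23.5 ± 1.97 in WT CC (n = 3). In CB it came 5th in HOMO and 7th in WT, behind Kif20a, Kif23, Kif4 and, in WT, also Kif18b and Kif22. Neighbours in these orders often lay within their spread. In HOMO CC, Kif20a averaged 21.4 ± 0.644, Kif23 21.3 ± 0.011 and Kif4 20.6 ± 0.071 CPM per kb. The most abundant of the other kinesins was Kif21b, a motor that restrains microtubule growth in neurons and T cells, at 19.9 ± 0.355 CPM per kb in HOMO CC, 21.8 ± 0.57 in HOMO CB, 22.8 ± 0.656 in WT CC and 23.5 ± 0.533 in WT CB. Kif5a and Kif5c, the neuronal relatives of Kif5b, each averaged under 0.1 CPM per kb in every group.

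Summed over the class, mitotic kinesins were lower in every CC library than in every CB library. The sums were 192 and 203 CPM per kb in HOMO CC, 298 and 329 in HOMO CB, 188, 181 and 178 in WT CC, and 338, 345 and 280 in WT CB. The corresponding sums over transport kinesins were 58.6 and 61.6 CPM per kb in HOMO CC, 67.9 and 67.8 in HOMO CB, 69.0, 60.4 and 57.2 in WT CC, and 63.7, 62.6 and 63.9 in WT CB. Transport sums of the fractions overlapped in WT and did not overlap in HOMO, where CC was the lower but each fraction had only 2 libraries. Kif5b alone averaged 26.2 of the mean sum of 60.1 CPM per kb in HOMO CC and 29.6 of 67.8 in HOMO CB. The sums were not adjusted for the GC trend, which was -0.18 and -0.23 in HOMO CC and -0.65 and -0.62 in HOMO CB. The ratio of mitotic to transport sums was 3.28 and 3.29 in HOMO CC, 4.39 and 4.85 in HOMO CB, 2.73, 3.00 and 3.10 in WT CC, and 5.30, 5.52 and 4.38 in WT CB. The WT CB library numbered 3 had the lowest mitotic sum among CB libraries and sat next to the HOMO CB libraries. In bulk RNA, fewer dividing cells and less of these messages per cell cannot be told apart.

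**Figure D1:**
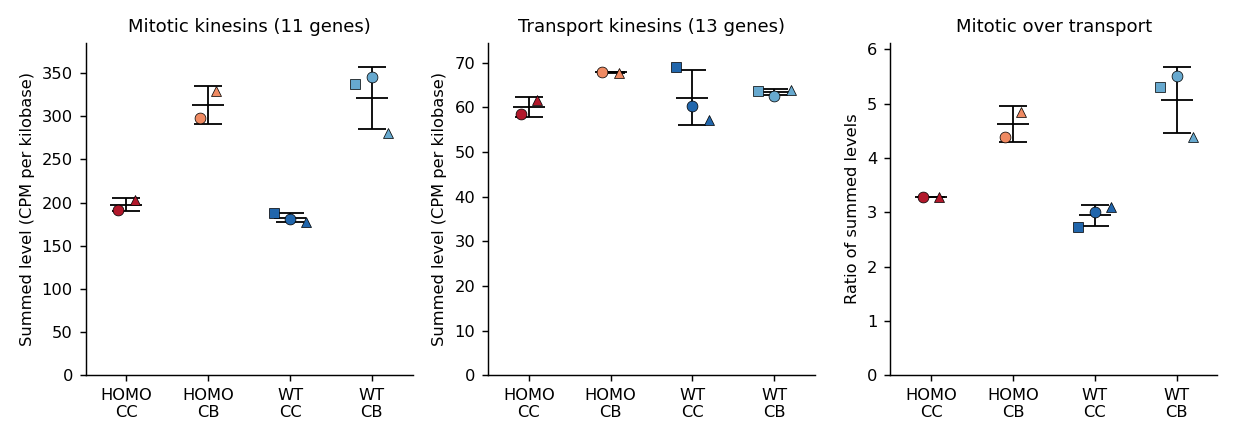
Summed level per library of the 11 mitotic kinesins and the 13 transport kinesins (CPM per kilobase) and the ratio of the 2 sums, for HOMO CC, HOMO CB, WT CC and WT CB. Points are libraries (square 1, circle 2, triangle 3), bars are the mean ± SD, and the mitotic sum is 203 or less in all CC libraries and 280 or more in all CB libraries.

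The start regions of kinesin genes were searched for letters known from promoters of genes that are switched on late in the cell cycle. One is the cell cycle genes homology region, TTTGAA or TTCGAA, through which MuvB complexes are known to repress genes in resting cells and, with Mybl2 and Foxm1, to switch them on before mitosis. The other is CCAAT, the letters bound by NF-Y. RefSeq promoters (250 bases before to 50 after the start, GRCm38.p6) were matched for 31 of the 38 members, 10 of them mitotic, 10 transport and 11 other, and both strands were searched. Homology region letters lay in 9 of the 10 mitotic genes, 1 of the 10 transport genes and 3 of the 11 others, against 21.7% of all genes with a promoter in the table (19.2% of promoters). Within 50 bases of the start they lay in 7 of the 10 mitotic genes, against 6.12% of all genes. CCAAT lay in 6 of the 10 mitotic and 3 of the 10 transport genes, against 41.1% of all genes. The windows below run from 60 bases before to 49 bases after the start base, 5′ to 3′ on the gene's strand, with capitals on these letters or on their reverse complements (ATTGG for CCAAT, and TTCAAA for the first form of the homology region). The first 5 are mitotic kinesins that hold homology region letters beside the start. Kif18a is the mitotic kinesin in which none were found, and Kif1c and Kif3c are transport kinesins with none in the window.
Kif11 (chr19:37376322-37376431, + strand): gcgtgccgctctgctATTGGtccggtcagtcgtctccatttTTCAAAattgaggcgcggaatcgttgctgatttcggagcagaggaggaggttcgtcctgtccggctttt
Kif23 (chr9:61946750-61946859, - strand): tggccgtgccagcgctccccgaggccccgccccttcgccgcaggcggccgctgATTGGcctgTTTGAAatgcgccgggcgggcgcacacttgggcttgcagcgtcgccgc
Kif20b (chr19:34922298-34922407, + strand): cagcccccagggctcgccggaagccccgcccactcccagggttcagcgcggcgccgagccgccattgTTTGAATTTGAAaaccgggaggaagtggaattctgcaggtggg
Kif4 (chrX:100626005-100626114, + strand): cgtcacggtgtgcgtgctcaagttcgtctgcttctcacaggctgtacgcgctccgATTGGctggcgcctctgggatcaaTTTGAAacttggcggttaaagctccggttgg
Kif18b (chr11:102925075-102925184, - strand): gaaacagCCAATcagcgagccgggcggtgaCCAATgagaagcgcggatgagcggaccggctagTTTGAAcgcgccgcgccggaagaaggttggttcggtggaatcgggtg
Kif18a (chr2:109280678-109280787, + strand): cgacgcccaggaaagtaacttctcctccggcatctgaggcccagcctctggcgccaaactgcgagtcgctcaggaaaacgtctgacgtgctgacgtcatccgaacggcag
Kif1c (chr11:70700488-70700597, + strand): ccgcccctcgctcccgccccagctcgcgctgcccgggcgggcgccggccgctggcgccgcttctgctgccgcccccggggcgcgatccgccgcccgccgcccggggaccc
Kif3c (chr12:3365072-3365181, + strand): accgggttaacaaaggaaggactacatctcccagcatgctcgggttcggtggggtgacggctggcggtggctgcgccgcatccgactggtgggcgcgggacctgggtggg
These are matches of letters and were not tested as binding sites. TTCGAA reads the same on both strands, and the homology region letters and CCAAT share no bases in these windows.

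The first comparison, CC against CB within WT, asks how the fractions differ in cells labelled Pbrm1+/+. All 11 mitotic kinesins fell in CC by edgeR's quasi-likelihood test (Benjamini-Hochberg adjusted p under 0.05 over the 16596 genes tested), while 12.3% of all genes tested fell. Their median log2 change was -0.75, against 0.01 over all genes, and the 11 also fell with the GC content of genes offset, with a median of -0.58. These genes differ in the step of division they serve, and Kif20a had the largest change among them. Kif20a, which carries the chromosomal passenger complex to the central spindle, was at 81.9, 85.5 and 80.7 CPM in WT CC, against 220, 224 and 154 CPM in WT CB. All 3 CC libraries lay below all 3 CB libraries, and the log2 change was -1.27 (SE 0.135, edgeR adjusted p = 0.000142). How the counting treated strand is not stated, and the count of Kif20a may hold reads of Cdc23, a subunit of the anaphase-promoting complex on the opposite strand that covers 29.3% of the Kif20a exons. Cdc23 was at 53.2, 56.3 and 50.6 CPM in WT CC and 73.5, 71.9 and 57.2 CPM in WT CB.

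Kif11 was at 273, 243 and 266 CPM in WT CC, against 463, 460 and 389 CPM in WT CB, with no overlap. It fell with a log2 fold change of -0.75 (SE 0.095, edgeR adjusted p = 0.000391). Kif23, the motor subunit of centralspindlin, which organizes the midzone with Racgap1, was at 176, 169 and 157 CPM in WT CC, against 279, 294 and 256 CPM in WT CB. It fell to 0.604 of its CB level (log2 change -0.73, SE 0.089, edgeR adjusted p = 0.00031). Kif2c, which takes apart microtubules at faulty kinetochore attachments, had 44.3, 50.4 and 47.9 CPM in WT CC, against 108, 114 and 80.5 CPM in WT CB, a log2 fold change of -1.09 (SE 0.137, edgeR adjusted p = 0.000381). Kif18a, which dampens chromosome movement at the metaphase plate, had 37.4, 35.8 and 51.4 CPM in WT CC, against 80.2, 83.2 and 91.4 CPM in WT CB, a log2 fold change of -1.04 (SE 0.133, edgeR adjusted p = 0.000418). For both, the libraries of the fractions did not overlap.

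The other 6 mitotic kinesins fell as well. Kif4, a chromosome-bound motor that works with Prc1 at the midzone, was at 119, 104 and 102 CPM in WT CC, against 179, 185 and 157 CPM in WT CB, a log2 fold change of -0.68 (SE 0.097, edgeR adjusted p = 0.000813). Pdzd11, on the opposite strand, covers 15.1% of its exons. Kif18b, which shortens astral microtubules, and Kif22, which pushes chromosome arms outward, changed by -0.87 and -0.85 on the log2 scale. Kif20b, a motor of late cytokinesis, and Kif14, which recruits citron kinase to the midbody, changed by -0.67 and -0.54. The change of -0.43 in Kif15, a motor that can stand in for Kif11 at the spindle, was the smallest in the class. Kif15 had 182, 171 and 187 CPM in WT CC, against 247, 243 and 239 CPM in WT CB, still without overlap (SE 0.078, edgeR adjusted p = 0.00311).

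Of the 11 transport kinesins tested, 3 rose in WT CC and none fell, against 11.6% of all genes tested that rose and 12.3% that fell. Their median log2 change was 0.36. Kif13a, which moves recycling endosomes, had 9.28, 4.14 and 2.60 CPM in WT CC, against 1.10, 1.00 and 1.18 CPM in WT CB. The CC libraries lay above the CB libraries but far apart from each other, and the log2 change was 2.29 (SE 0.43, edgeR adjusted p = 0.00379). Listed macrophage markers ran in the same order, with summed levels of 898, 236 and 61.5 CPM in WT CC 1, 2 and 3 and 15.5 to 25.7 CPM in WT CB. 10 of the 13 macrophage markers rose in WT CC, and Marco was at 0 in WT CC 3 and WT CB 3. Listed erythroid markers had sums of 66.6, 14.8 and 2.88 CPM in WT CC 1, 2 and 3 and 2.23 to 3.85 CPM in WT CB, and 4 of the 6 tested rose. The part of either list in the Kif13a value was not tested. Without WT CC libraries 1 and 2, which leaves 1 WT CC library whose spread is taken from the other groups, the log2 change of Kif13a was 1.25 (edgeR adjusted p = 0.113).

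Kif1c, a carrier of dense core vesicles and integrins, had 79.2, 70.9 and 57.4 CPM in WT CC, against 54.1, 55.1 and 47.9 CPM in WT CB, a log2 fold change of 0.40 (SE 0.117, edgeR adjusted p = 0.0289). In WT CC it ran in the order of the macrophage and erythroid marker sums, whose part in it was not tested. Kif3c, a kinesin-2 motor subunit, had 28.7, 30.8 and 26.5 CPM in WT CC, against 20.3, 24.6 and 22.1 CPM in WT CB, a log2 fold change of 0.36 (SE 0.111, edgeR adjusted p = 0.037). Each was higher in all CC than in all CB libraries. Both calls were lost on leaving out WT CC 1, WT CC 2, WT CB 1 or any HOMO library, and that of Kif1c also without WT CB 2. Without HOMO CB 2 the edgeR adjusted p was 0.0549 for Kif1c and 0.0792 for Kif3c, and without WT CC 1 it was 0.116 and 0.0844. Genes on the opposite strand cover 40.7% of the Kif3c exons, chiefly 1110002L01Rik, which was lower in WT CC (18.2, 21.1 and 20.9 CPM) than in WT CB (24.8, 25.7 and 22.5 CPM).

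The level of Kif5b changed little between fractions. It had 198, 169 and 195 CPM in WT CC, against 209, 203 and 223 CPM in WT CB, lower in CC without overlap. Its log2 fold change was -0.17 (SE 0.089, edgeR adjusted p = 0.183), and 0.03 with GC content offset. Kif3a and Kif3b, which pair with each other as the kinesin-2 motor of cilia and vesicles, had log2 changes of -0.56 and -0.42 (edgeR adjusted p = 0.0596 and 0.0566). Kif16b, which moves early endosomes, had 0.33 (edgeR adjusted p = 0.0528). With the WT library number as a block these 3 also passed, so that 6 transport kinesins did (4 higher and 2 lower), while 35.4% of all genes passed under the block. Kif1b and Kif13b, carriers of mitochondria and of membrane cargo, had log2 changes of 0.39 and 0.13 (edgeR adjusted p = 0.229 and 0.511). By sign alone, 8 of the 11 tested transport kinesins had a higher and 3 a lower value in WT CC.

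Among the 8 other kinesins tested, 1 fell and 1 rose, where 23.9% of all genes passed in either direction. Kif2a, a relative of Kif2c that takes apart microtubules at spindle poles and in growing neurites, had 62.0, 59.2 and 77.8 CPM in WT CC, against 103, 99.3 and 107 CPM in WT CB, without overlap. Its log2 fold change of -0.64 (SE 0.108, edgeR adjusted p = 0.00221) lay within the range of the mitotic class. Dimt1, on the opposite strand, covers 19.2% of its exons and had 9.84 to 13.4 CPM in WT CC and 10.2 to 10.6 CPM in WT CB. Kif7, a ciliary regulator of Hedgehog signalling, rose with a log2 fold change of 2.11 (SE 0.622, edgeR adjusted p = 0.0305) on only 19, 16 and 13 counts in WT CC and 7, 5 and 9 counts in WT CB. The call was lost without some single libraries, such as WT CB 2 (edgeR adjusted p = 0.101). Genes on the opposite strand, among them Ticrr, cover 20.3% of the Kif7 exons, so the Kif7 count may hold reads of Ticrr. Ticrr was at 122 to 126 CPM in WT CC and 135 to 143 CPM in WT CB. Kif7 was at 0.780 to 0.913 CPM in WT CC and 0.140 to 0.276 CPM in WT CB. Kif24, which restrains cilium growth, Kif21b and the ciliary Kif9 had log2 changes of 0.01, -0.05 and 0.02. Kif19a, which limits the length of cilia, had -0.80 (edgeR adjusted p = 0.131). Kif26b and Kif28, at under 1 CPM, had edgeR adjusted p = 0.347 and 0.875.

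**Figure D2:**
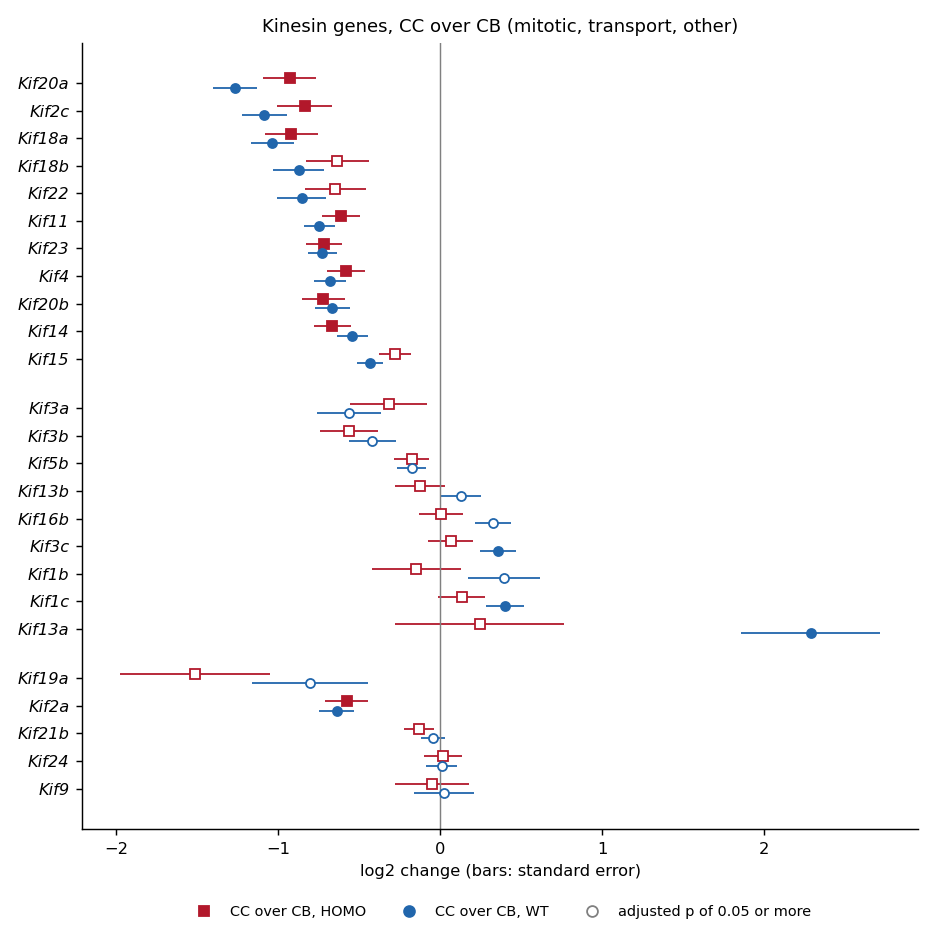
The log2 change of CC over CB in HOMO (squares) and in WT (circles) for the 25 tested kinesins with a mean of at least 1 CPM, in blocks of mitotic, transport and other kinesins, with standard errors. Filled symbols passed an adjusted p of 0.05; all 11 mitotic kinesins lie left of 0 in both genotypes, and all 11 in WT but only 8 in HOMO are filled.

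The second comparison, CC against CB within HOMO, asks the same of the cells labelled Pbrm1-/-. Of the 11 mitotic kinesins 8 fell by edgeR's test, against 2.98% of all genes tested, and the remaining 3 had values in the same direction. The median log2 change of the class was -0.67, against -0.01 over all genes. Kif23 had 168 and 168 CPM in HOMO CC, against 262 and 291 CPM in HOMO CB (log2 change -0.72, SE 0.109, edgeR adjusted p = 0.00352). Kif11 had 287 and 315 CPM in HOMO CC, against 453 and 469 CPM in HOMO CB (log2 change -0.61, SE 0.116, edgeR adjusted p = 0.0111). Both pairs of CC libraries lay well below the CB libraries.

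Kif20a had 90.8 and 94.7 CPM in HOMO CC, against 164 and 189 CPM in HOMO CB (log2 change -0.93, SE 0.164, edgeR adjusted p = 0.00749). The overlapping Cdc23 had 61.5 and 63.3 CPM in HOMO CC and 66.7 and 67.2 CPM in HOMO CB. Kif18a, at 55.7 and 57.3 CPM in HOMO CC and 101 and 113 CPM in HOMO CB, changed by a similar -0.92 (SE 0.163, edgeR adjusted p = 0.00756). Kif14, at 72.1 and 75.6 CPM in HOMO CC and 111 and 123 CPM in HOMO CB, and Kif20b, at 114 and 117 CPM in HOMO CC and 180 and 202 CPM in HOMO CB, fell with log2 changes of -0.67 and -0.72. Kif2c and Kif4 fell as well, with log2 changes of -0.84 and -0.58. The 3 that did not pass were Kif22 at -0.65 (edgeR adjusted p = 0.0706), Kif18b at -0.63 (0.0861) and Kif15 at -0.28 (0.127).

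The HOMO calls rest on 2 libraries a fraction. With the WT library number as a block, a term that HOMO libraries do not carry, all 11 mitotic kinesins passed, while 13.8% of all genes did. Without HOMO CC 2, HOMO CC 3 or HOMO CB 3, which leaves 1 library on a side whose spread is taken from the other groups, none of the 11 passed, although all 11 stayed lower in CC. Without HOMO CB 2, which also leaves 1 library, 6 of the 11 passed. Of the other kinesins Kif2a fell, at 77.4 and 84.2 CPM in HOMO CC, against 122 and 118 CPM in HOMO CB (log2 change -0.58, SE 0.133, edgeR adjusted p = 0.0286). No transport kinesin of the 11 passed in HOMO by edgeR, where 2.46% of all genes rose and 2.98% fell. An unadjusted p under 0.05 was found for 2 of them and for 19.2% of all genes, and DESeq2 passed 1, Kif3b, and 9.98% of all genes. With the block edgeR also passed Kif3b, and fitted to the HOMO libraries alone it passed Kif3b and Kif5b, both lower in CC, and 30.4% of the 14651 genes then tested. Of the kinesins with a higher value in HOMO CC, Kif7 and Kif26b had the smallest p (edgeR adjusted p = 0.0781 and 0.176). Kif7 was at 0.366 and 0.949 CPM in HOMO CC (6 and 10 counts), against 0.0732 and 0.102 CPM in HOMO CB (2 and 7 counts). Kif26b was at 1.83 and 1.23 CPM in HOMO CC (30 and 13 counts), against 0.183 and 0.6 CPM in HOMO CB (5 and 41 counts). Neither gene overlapped between the fractions in CPM. Kif3b had 49.2 and 48.8 CPM in HOMO CC, against 71.8 and 73.0 CPM in HOMO CB, without overlap (log2 change -0.56, SE 0.179, edgeR adjusted p = 0.0999). Kif5b had 201 and 217 CPM in HOMO CC, against 234 and 239 CPM in HOMO CB, also without overlap. Its log2 fold change was -0.18 (SE 0.109, edgeR adjusted p = 0.434), and 0.01 with GC content offset. Kif13a, the largest riser in WT, had 2.50 and 1.71 CPM in HOMO CC and 1.61 and 1.96 CPM in HOMO CB, which overlapped, where the macrophage markers summed to 40.2 and 35.1 CPM in HOMO CC and 30.5 and 15.6 CPM in HOMO CB.

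**Figure D3:**
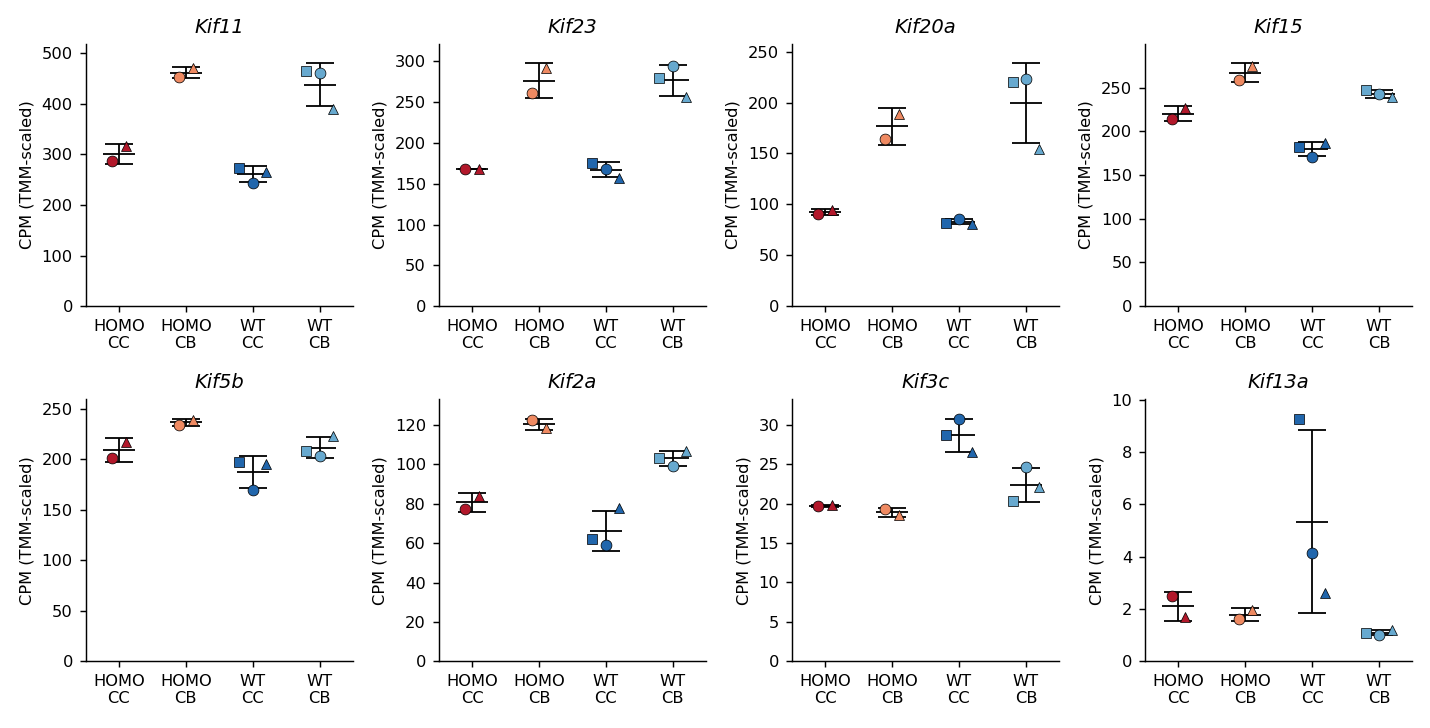
TMM-scaled CPM of 8 kinesins in every library of HOMO CC, HOMO CB, WT CC and WT CB (square 1, circle 2, triangle 3), with the mean ± SD as bars. Kif11, Kif23, Kif20a, Kif15 and Kif2a are lower in all CC than in all CB libraries of their genotype, Kif5b changes little, Kif3c is highest in WT CC, and Kif13a is spread between 2.60 and 9.28 CPM in WT CC.

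Most listed partners of the mitotic kinesins were lower in CC as well. Of 23 listed genes of the spindle, midzone and mitotic entry, 15 fell in CC in HOMO and 20 in WT, with median log2 changes of -0.76 and -0.98. Of all genes, 2.98% fell in HOMO and 12.3% in WT, with medians of -0.01 and 0.01. Hmmr, a spindle assembly factor, changed by -1.21 in HOMO and -1.34 in WT, Ect2, which centralspindlin brings to the midzone to start furrowing, by -1.02 in HOMO and -0.98 in WT, and Ccnb1, the mitotic cyclin, by -1.31 in HOMO and -1.48 in WT. Nusap1, a protein that bundles spindle microtubules, changed by -0.90 in HOMO and -1.11 in WT. Numa1, which anchors spindle poles, and Cit, the citron kinase, did not pass in WT, with log2 changes of 0.00037 and -0.006. Kinesins whose names fall outside the symbol rule included Cenpe, the kinetochore motor, which fell with log2 changes of -1.01 in HOMO and -0.81 in WT. Kifc1, which clusters spindle poles, had -0.61 in HOMO (edgeR adjusted p = 0.172) and fell by 0.61 in WT (edgeR adjusted p = 0.0373). Stard9, a spindle pole motor, had 0.51 in HOMO (edgeR adjusted p = 0.359) and rose in WT by 1.32 on the log2 scale. It was at 75.0, 52.1 and 44.7 CPM in WT CC 1, 2 and 3, in the order of the macrophage marker sums, whose part in it was not tested.

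The counts that follow stand beside 2.46% of all genes that rose and 2.98% that fell in HOMO, and 11.6% that rose and 12.3% that fell in WT. Of 16 tested adaptors and light chains of transport kinesins, none passed in HOMO by edgeR, while in WT 2 rose and 3 fell. Plekhm2, which links lysosomes to conventional kinesin, and Mapk8ip3, a cargo scaffold, rose in WT by 0.73 and 0.46 on the log2 scale. Both ran in the order of the macrophage marker sums over WT CC 1, 2 and 3, and the part of macrophage RNA in them was not tested. Kifap3, the third subunit of the Kif3a and Kif3b motor, changed by -0.57, and Arl8b, the lysosomal GTPase that recruits Plekhm2, by -0.50. Of 15 tested subunits of dynein, the motor that runs the opposite way, and dynactin, 2 fell in HOMO and 7 in WT, among them Dynlt3 by -1.18 in HOMO and -1.19 in WT and Dync1i2 by -0.51 in HOMO and -0.53 in WT. Of 13 regulators that act through the promoter letters described above or through E2F sites, 2 fell in HOMO, and 6 fell and 1 rose in WT. Rbl1 and Rbl2, pocket proteins that join MuvB in resting cells, fell with log2 changes of -0.40 and -0.38 in HOMO and -0.53 and -0.43 in WT. Mybl2, the factor that takes its place in dividing cells, rose in WT by 0.58 (edgeR adjusted p = 0.00974) and had 0.56 in HOMO (edgeR adjusted p = 0.0681), opposite in direction to the mitotic kinesins. Foxm1 had the direction of the mitotic kinesins. It fell in WT with a log2 change of -0.38 (edgeR adjusted p = 0.0494) and had -0.34 in HOMO (edgeR adjusted p = 0.266).

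The third comparison, HOMO against WT in CB, asks how the genotypes differ in the fraction with the higher mitotic sum. None of the 30 tested kinesins passed by edgeR, and 0.0241% of all genes did. 4 kinesins had an unadjusted p under 0.05, as had 12.5% of all genes, and DESeq2 passed 1, Kif16b, and 1.68% of all genes. Kif16b had 52.6 and 54.7 CPM in HOMO CB, against 39.6, 38.8 and 40.5 CPM in WT CB, without overlap (log2 change 0.44, SE 0.122, edgeR adjusted p = 0.255). Kif3a had 8.61 and 7.23 CPM in HOMO CB, against 5.40, 5.46 and 4.62 CPM in WT CB, also without overlap (log2 change 0.62, SE 0.21, edgeR adjusted p = 0.315). The mitotic class had a median log2 change of -0.0014, the transport class -0.0037 and all genes -0.04. For Kif11 and Kif23 the log2 changes were 0.08 and -0.0014, and for Kif20a -0.17 (edgeR adjusted p = 0.641), with the HOMO values of each inside the range of the WT values or overlapping it. Kif5b, higher in both HOMO CB libraries than in all WT CB libraries, had 0.16 (edgeR adjusted p = 0.513), and -0.06 with GC content offset. Listed neutrophil markers summed to 171 and 8.41 CPM in HOMO CB, against 0.985, 0.0344 and 15.2 CPM in WT CB. Their part in the values of this comparison was not tested.

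The fourth comparison sets HOMO against WT in CC. None of the 30 tested kinesins passed by edgeR, and 0% of all genes did. 9 kinesins had an unadjusted p under 0.05, as had 18.9% of all genes, and DESeq2 passed 3, Kif15, Kif3a and Kif3c, and 4.92% of all genes. Kif3c had 19.7 and 19.8 CPM in HOMO CC, against 28.7, 30.8 and 26.5 CPM in WT CC, without overlap (log2 change -0.54, SE 0.129, edgeR adjusted p = 0.117). The kinesin-2 subunit Kif3a had 6.77 and 5.88 CPM in HOMO CC, against 3.57, 3.83 and 3.02 CPM in WT CC, also without overlap but in the other direction (log2 change 0.86, SE 0.222, edgeR adjusted p = 0.133). Kif3b had a log2 change of -0.21 (edgeR adjusted p = 0.522). In CB the 2 genes had log2 changes of the same signs, -0.24 for Kif3c and 0.62 for Kif3a. Kif15 had 214 and 226 CPM in HOMO CC, against 182, 171 and 187 CPM in WT CC (log2 change 0.29, SE 0.087, edgeR adjusted p = 0.146). The mitotic class had a median log2 change of 0.07 and the transport class -0.27, against -0.03 over all genes. Kif5a had 0 counts in both HOMO CC libraries, each count of 0 allowing up to 0.183 or 0.285 CPM, against 0.698, 0.155 and 0.562 CPM in WT CC. Kif13a had a log2 change of -1.34 (edgeR adjusted p = 0.19), and the macrophage marker sums given above were also lower in HOMO CC than in WT CC. In CB those sums overlapped between genotypes. Kif13a was there higher in HOMO without overlap, with a log2 change of 0.71 (edgeR adjusted p = 0.538). The part of macrophage RNA in these Kif13a values was not tested. Neutrophil markers summed to 140 and 15 CPM in HOMO CC, against 0.246, 0 and 15.3 CPM in WT CC, and their part in these values was not tested.

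**Figure D4:**
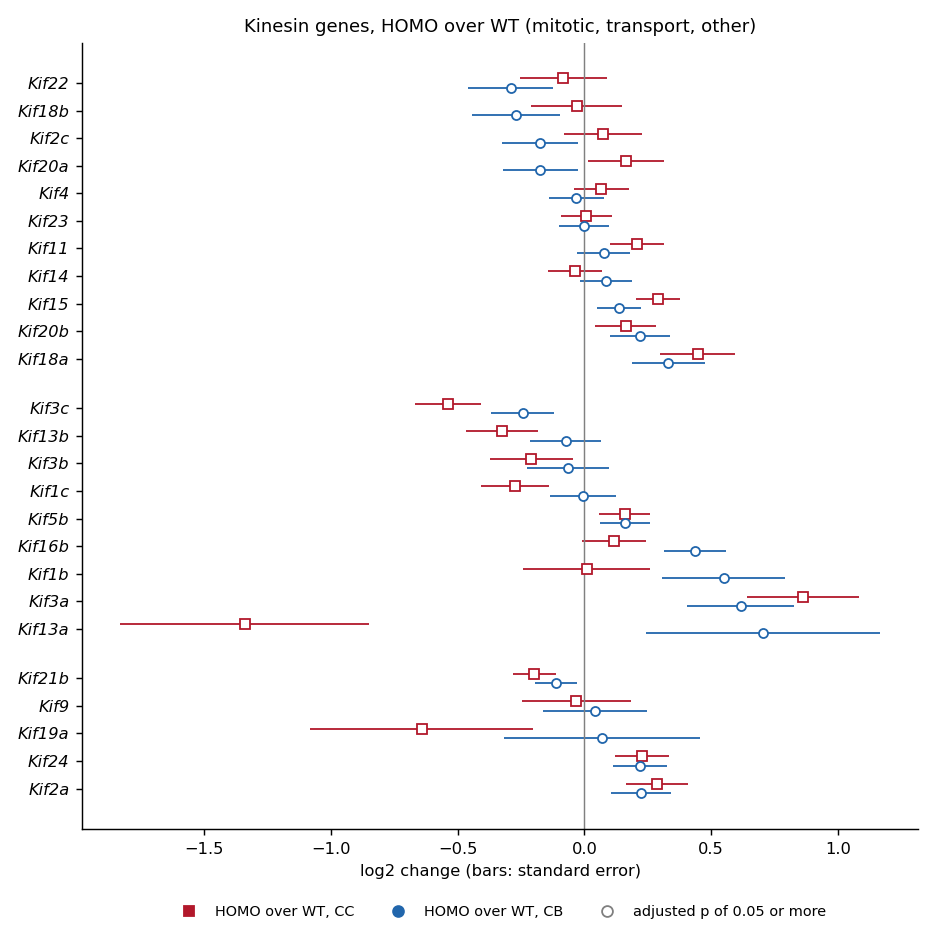
The log2 change of HOMO over WT in CC (squares) and in CB (circles) for the 25 tested kinesins with a mean of at least 1 CPM, in blocks of mitotic, transport and other kinesins, with standard errors. All symbols are open, since no kinesin passed an adjusted p of 0.05; Kif3a lies at 0.86 in CC and 0.62 in CB and Kif3c at -0.54 in CC and -0.24 in CB.

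These genotype values depend on the WT libraries numbered 3, which resembled HOMO libraries in Xist, in Ddx3y and, in CB, in GC trend. Ddx3y was at 39.2 CPM in WT CC 3 and 40.1 CPM in WT CB 3. It was at 35.2 to 51.1 CPM in HOMO and 79.6 to 104 CPM in the WT libraries numbered 1 and 2. Without both of them edgeR passed 30.4% of the 16088 genes then tested in CB, 31.3% in CC and 8.98% for the interaction. In CB 10 of the 29 kinesins tested then passed. Of these Kif16b (log2 change 0.48), Kif3a (0.57), Kif5b (0.23), Kif2a (0.28), Kif24 (0.26) and Kif18a (0.42) were higher in HOMO, and Kif20a (-0.30), Kif22 (-0.43), Kif18b (-0.40) and Kif2c (-0.28) were lower. In CC 12 of the 29 passed, with Kif18a (0.65), Kif15 (0.35), Kif11 (0.25), Kif2a (0.44), Kif3a (0.81) and Kif5b (0.22) higher and Kif3c (-0.56), Kif1c (-0.36), Kif13b (-0.32), Kif3b (-0.34), Kif13a (-1.62) and Kif5a lower. In CC the GC content was 37.99% to 48.05% for the higher and 49.14% to 55.43% for the lower members. In CB it was 37.99% to 49.58% for the higher and 48.89% to 55.31% for the lower members. GC trends were positive in the WT libraries numbered 1 and 2 and negative in all HOMO libraries. The part of GC content in these calls was not tested. Genotype cannot be told apart here from whatever else the WT libraries numbered 1 and 2 share, their Xist and Ddx3y levels included.

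The last comparison, the interaction, tests whether the step from CB to CC differed between HOMO and WT. None of the 30 tested kinesins passed by edgeR, 0% of all genes did, and DESeq2 passed no kinesin and 0% of all genes. An unadjusted p under 0.05 was found for 2 kinesins and for 2.62% of all genes. These were Kif13a, with an interaction of -2.05 on the log2 scale (SE 0.671), and Kif5a, at 0 counts in HOMO CC. For the mitotic class the median interaction was 0.13, that is, a smaller fall in HOMO, with Kif20a at 0.34 (SE 0.21), Kif11 at 0.13 (SE 0.149) and Kif23 at 0.01 (SE 0.14), each within 2 standard errors of 0. For the transport class it was -0.27, with Kif5b at -0.002 (SE 0.141). Without both WT libraries numbered 3, edgeR passed Kif20a (0.47) among the mitotic and Kif13a (-2.43), Kif13b (-0.44) and Kif16b (-0.44) among the transport kinesins, where 8.98% of all genes passed.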

How the data were processed

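RNA-seq libraries of 10 samples were analysed from the deposited table of read counts per gene, whole numbers that the authors had not normalized. Gene lengths in bases, from a column of the same deposited table, were used for CPM per kb. Per the submitters' processing notes, the build was mm10 and the tools were STAR, featureCounts of Subread, FastQC and R 4.2.1. Settings for strand, multi-mapping reads and annotation were not given in the sources used here. Overlapping, antisense and near-identical genes therefore have uncertain counts. Kif4-ps and Kif22-ps, the pseudogenes of 2 members, had 0 counts in all libraries. Symbols were found for 54587 identifiers including the version and for 567 by the unversioned identifier, and 267 had none.

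Groups came from the sample titles. HOMO columns are numbered 2 and 3 in the table and HOMO titles 1 and 2, so HOMO columns were assigned to a group only. Libraries of a group differed by more than sampling noise (chi-square per degree of freedom from 4.14 to 80.7, over genes with at least 20 reads in a pair). Genes were filtered with filterByExpr (minimum count 10, total 15) and scaled with TMM. edgeR 4.0.16's robust quasi-likelihood test (R 4.3.3) was fitted to all 10 libraries and 4 group means, with Benjamini-Hochberg adjustment over 16596 genes and a threshold of 0.05. The common coefficient of variation was 23.1%. Each SE is the size of the log2 change over the square root of its F. Depth limits the members under 1 CPM, and limits from counts cover counting error only.

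Same-numbered WT CC and CB libraries deviated together (r = 0.301, 0.426 and 0.436 over 8805 genes, against -0.411 to 0.278 for other pairs). The WT numbers were therefore taken as pairs, from the data, and used as a block in an alternative fit.

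Kinesin classes, partner lists, marker lists and tests were chosen with earlier results of these data known. All members are named. Values by library are given for Kif11, Kif20a, Kif23 and Kif5b and, in each comparison, for up to 6 members that rose and 6 that fell with the smallest p, or otherwise for the 2 with the smallest p. Values by library of Kif2a, Kif15 and, in HOMO, Kif3b and Kif13a were added after they had been seen. For other lists, up to 4 of the passing genes, by smallest p, are named, and Cit, Numa1, Mybl2, Foxm1 and Kifc1 in HOMO were added after their values had been seen. Alternatives were DESeq2 1.42.0, other scalings and filters, the compared groups alone, leaving out libraries, the block and a GC content offset. Promoters and motif counts were read from RefSeq with Python 3.11.15, and figures drawn with matplotlib 3.10.9. The edgeR fit, and no other step, was tested on simulated counts.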

Additional observations from a re-analysis of the deposited data

How the results depend on the processing

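For 41 log2 changes of 20 kinesins (the 4 marker genes between fractions and genotypes, the members that passed and, where none did, the 2 with the smallest p), 23 alternatives gave 914 values, of which 796 kept direction and side of the threshold, 78 lost and 17 gained the call, and 23 changed sign. All 11 mitotic kinesins passed in WT under every alternative that left out 1 library. Without both libraries of WT number 1, 9 kinesins of any class passed in WT, all lower in CC, so some mitotic kinesins lost the call. Some also lost it without WT CC 1 and 2 together, which leaves 1 WT CC library. GC offset, its fit with the block, and leaving out both libraries of a WT number were chosen after seeing the data.

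With DESeq2, transport calls numbered 1 in HOMO CC against CB, 5 in WT, 1 between genotypes in CB and 2 in CC, with 2 other kinesins in HOMO and 1 mitotic in CC. With no filter on low counts these were 1 transport and 2 other in HOMO, and 1 mitotic and 1 transport in CC between genotypes. The stricter filter gave 1 other kinesin in WT, and upper-quartile scaling 0 in HOMO. Fitting only the compared groups gave 2 transport and 3 other kinesins in HOMO and 1 transport in WT. With the WT number as a replicate block, 1 transport and 2 other kinesins passed in HOMO and 6 transport in WT. With the GC offset 2 other kinesins passed in HOMO, and with offset and block 1 transport and 3 other in HOMO and 5 transport in WT.

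Leaving out 1 library gave 0 to 10 mitotic, 0 to 1 transport and 0 to 1 other kinesins in HOMO CC against CB, and 11 mitotic, 1 to 7 transport and 1 to 2 other in WT. Between genotypes it gave 0 to 2 mitotic, 0 to 1 transport and 0 other in CB, and 0 to 2 mitotic, 0 to 4 transport and 0 to 1 other in CC. Without WT CC 1 and 2 together, 1 transport and 2 other kinesins passed in HOMO, and 1 transport and 0 other in WT. Without both libraries of WT number 1, 0 other passed in HOMO, and 0 transport and 1 other in WT, and without number 2, 1 transport and 1 other in WT. Without number 3, 1 transport and 3 other passed in HOMO, 7 transport and 1 other in WT, 5 mitotic, 3 transport and 2 other between genotypes in CB, 3 mitotic, 8 transport and 1 other in CC, and 1 mitotic and 3 transport in the interaction. The share of all genes that passed also moved between fits, so shifts in these counts are not particular to kinesins. Between genotypes in CB it was 0.0241% with all 10 libraries and 30.4% without WT number 3. In CC it was 0% and 31.3%.

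All values that changed sign were uncalled. Kif23, HOMO against WT in CB, was 0.0057 with DESeq2 size factors, 0.037 with upper-quartile scaling, 0.0063 with DESeq2, 0.00028 with no filter, 0.0012 with the stricter filter, 0.012 in the compared groups, 0.0044 and 0.046 without WT number 1 and 2, and -0.065 to 0.088 without single libraries. In CC it was -0.024 (without WT CC 3) to 0.045 without single libraries, -0.0057 without WT number 3 and -0.11 with GC offset. With GC offset Kif5b was 0.014 (0.014 with block) in HOMO and 0.027 (0.025 with block) in WT for CC against CB, and -0.055 in CB and -0.068 in CC between genotypes, and Kif11 was -0.16 in CB and -0.030 in CC between genotypes. In CPM of the unscaled total, mitotic sums averaged 1405 in HOMO CC and 1172 in WT CC, and transport sums 517 in HOMO CC and 549 in HOMO CB, against 1329, 1210, 489 and 543 CPM after scaling. The causes of these changes were not tested.

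HOMO had 2 libraries a fraction, and between genotypes in CC Kif3a, Kif3c and Kif15 passed with DESeq2 but not with edgeR. Members with few counts, such as Kif5a, Kif5c, Kif7, Kif26b and Kif28, have imprecise fold changes.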
